A study of Mus musculus with 18 samples.

Results

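The mRNAs of 10 scavenger and lipoprotein uptake receptors were followed in cultured mouse peritoneal macrophages. The genes were chosen by name, as scavenger and lipoprotein receptors of macrophages: Msr1, Marco, Cd36, Scarb1, Scarb2, Olr1, Stab1, Cd68, Lrp1 and Vldlr. Among these, Scarb2 and Cd68 encode membrane proteins of lysosomes. They are 10 of the 21831 genes in the count table, and all 10 were among the 13409 genes that passed the filter on low counts. The macrophages came from 6-week-old C57BL/6 mice injected intraperitoneally with 1 mL of 3% thioglycollate, which recruits macrophages by irritation, 3 days before collection. After attaching for 4 h, the cells received 20 µM PCN, a steroid ligand of the nuclear receptor PXR, or the solvent DMSO for 12 h. The 18 libraries fell into 4 groups: cells without PXR in the myeloid lineage with PCN (dMye_PCN, n = 6), the same genotype with DMSO (dMye_DMSO, n = 6), cells with floxed PXR alleles and PCN (FF_PCN, n = 3) and the same genotype with DMSO (FF_DMSO, n = 3). The labels do not name the Cre driver, the deleted exons or the animals behind each library, and each p-value therefore speaks only of the spread between libraries, part of which may be technical.

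Macrophages remove oxidised and acetylated lipoproteins, microbes and dying cells through scavenger receptors, which are grouped into classes by their structure. Several of these receptors are not turned down as the cell fills with cholesterol, and they are known for the part they play in foam cells of the arterial wall. LRP1 and the VLDL receptor, which belong to a family of endocytic lipoprotein receptors, bind apolipoprotein E, lipase and many other ligands and carry them into endosomes.

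Depth and the checks that touch the receptors were as follows. Library totals ran from 21993697 to 30228017 counts, so that 1 CPM (counts scaled to library size) stood for 22 to 30.2 counts. Nr1i2, the PXR gene, had 3 and 2 counts summed over the dMye_PCN and dMye_DMSO libraries, and 1 and 2 counts over the FF_PCN and FF_DMSO libraries, which is too few to check the genotype. Ddx3y, a gene of the Y chromosome, lay between 0 and 0.475 CPM in the dMye libraries and between 43.7 and 62.7 CPM in the FF libraries, so genotype and sex cannot be told apart in any comparison of dMye with FF. The 10 mesothelial and fibroblast markers summed to 613 to 794 CPM in dMye libraries and to 146 to 184 CPM in FF libraries, and all 10 were higher in dMye under both agents. The 8 macrophage markers summed to 4010 to 4777 CPM in dMye_PCN and 4760 to 6388 CPM in dMye_DMSO, and to 4975 to 5567 CPM in FF_PCN and 7927 to 8571 CPM in FF_DMSO, but most of each sum was Lyz2 (2917 to 5347 CPM in dMye and 4033 to 7472 CPM in FF). Counted gene by gene, 2 of the 8 were higher and 2 lower in dMye than in FF under DMSO, with a median log2 fold change of 0.03, and 6 were higher and 2 (Lyz2 and Ptprc) lower under PCN, with a median of 0.23. Of all tested genes, 13.9% were called higher and 7.85% lower under DMSO, and 16.2% higher and 11.4% lower under PCN. In such bulk samples, fewer cells of a type and less RNA per cell cannot be told apart. Of the 6 neutrophil markers Ly6g was at 0 in every library, and of the 5 adipocyte markers Cidec was at 0 in every library.

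The promoters of 4 members are shown, those whose levels differed most plainly between groups or whose libraries lay closest together: Marco and Vldlr, which were higher in dMye, Cd36, which was lower in dMye, and Scarb2. The sequences are from RefSeq on GRCm38.p6, written 5′ to 3′ on the gene's strand, from 250 bases before to 50 bases after an annotated start. RefSeq promoters matched 8 of the 10 members, with 2 starts for Vldlr, of which the downstream start is printed. The printed starts of Cd36, Scarb2 and Vldlr lie inside the gene spans given below. Which starts these cells used was not tested. Capitals mark exact matches, on either strand, to the TATA box (TATAAA), the GC box (GGGCGG), the CCAAT box (CCAAT), an ETS core (AGGAAGT), the AP-1 site (TGANTCA), a pair of E-boxes (CACGTG and CATGTG), the nuclear receptor hexamer (AGGTCA) and a sterol regulatory element (TCACCCCAC). The Marco promoter is chr1:120504975-120505274 on the minus strand, that of Vldlr is chr19:27216770-27217069 on the plus strand, that of Scarb2 is chr5:92505608-92505907 on the minus strand, and that of Cd36 is chr5:17835847-17836146 on the minus strand.
Marco: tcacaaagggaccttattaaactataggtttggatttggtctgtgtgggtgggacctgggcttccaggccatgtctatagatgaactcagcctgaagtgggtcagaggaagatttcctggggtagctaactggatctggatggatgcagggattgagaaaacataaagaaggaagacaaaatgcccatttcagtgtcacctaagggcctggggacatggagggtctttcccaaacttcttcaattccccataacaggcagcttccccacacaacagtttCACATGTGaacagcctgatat
Vldlr: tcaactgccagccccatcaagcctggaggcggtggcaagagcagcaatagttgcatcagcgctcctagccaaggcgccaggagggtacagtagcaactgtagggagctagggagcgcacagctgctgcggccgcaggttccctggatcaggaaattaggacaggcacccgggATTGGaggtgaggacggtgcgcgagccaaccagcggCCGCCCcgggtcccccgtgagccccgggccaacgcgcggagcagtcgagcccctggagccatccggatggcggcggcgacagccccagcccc
Scarb2: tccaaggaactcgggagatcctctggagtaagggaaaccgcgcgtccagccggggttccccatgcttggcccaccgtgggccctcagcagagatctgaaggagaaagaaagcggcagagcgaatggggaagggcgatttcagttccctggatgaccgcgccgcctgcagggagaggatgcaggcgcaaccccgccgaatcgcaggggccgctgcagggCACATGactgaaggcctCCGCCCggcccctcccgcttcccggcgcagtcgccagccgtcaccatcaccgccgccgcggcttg
Cd36: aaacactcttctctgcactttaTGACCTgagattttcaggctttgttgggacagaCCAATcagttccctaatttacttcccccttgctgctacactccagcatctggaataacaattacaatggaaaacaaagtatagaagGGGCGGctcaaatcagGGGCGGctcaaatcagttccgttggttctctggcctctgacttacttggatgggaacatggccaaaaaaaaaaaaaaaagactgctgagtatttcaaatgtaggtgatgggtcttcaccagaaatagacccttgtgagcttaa

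The Cd36 promoter held GGGCGG at positions -109 and -93, where position 1 is the first transcribed base, CCAAT at -195 and the nuclear receptor hexamer AGGTCA, on the opposite strand, at -228. The Scarb2 promoter held GGGCGG at -15 and CATGTG at -32, both on the opposite strand. Marco held CATGTG on both strands at 30 and 32, in overlapping letters downstream of the start. The printed Vldlr promoter held GGGCGG at -42 and CCAAT at -78, both on the opposite strand. Of all 32851 promoters of this length in the table, 35.7% held GGGCGG, 37.4% held CCAAT, 16.3% held AGGTCA and 14.2% held CATGTG. None of the members' 9 promoters held TATAAA (13.6% of all promoters), AGGAAGT (9.35%), CACGTG (7.15%) or TCACCCCAC (0.551%). TGANTCA, held by 7.81%, was in those of Olr1 and Cd68.

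The receptors differed in level by more than 3 orders of magnitude when CPM was divided by the length of each gene's longest coding transcript. Cd68, a heavily glycosylated lysosomal membrane protein of macrophages, was first in every group, with 1923 and 1890 CPM per kb in dMye_PCN and dMye_DMSO, and 2012 and 2069 CPM per kb in FF_PCN and FF_DMSO. Cd36 followed with 656 to 878 CPM per kb over the group means, then Lrp1 with 131 to 169 and Scarb2 with 72.4 to 86.5 CPM per kb. Scarb1, Msr1 and Marco lay lower, with group means of 12.9 to 19.4, 10.8 to 14 and 4.34 to 12.7 CPM per kb. Stab1 (3.02 to 3.94), Olr1 (1.52 to 2.0) and Vldlr (0.252 to 1.03 CPM per kb) were the lowest. The libraries of neighbours in this order did not overlap, except for Msr1 and Marco in both dMye groups and Marco and Stab1 in FF_DMSO. Together the members held 0.734% ± 0.0473 (SD, n = 6) of all counts in dMye_PCN and 0.705% ± 0.0422 in dMye_DMSO (n = 6). In FF_PCN they held 0.842% ± 0.0406 and in FF_DMSO 0.849% ± 0.0120 (n = 3 each).

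**Figure D1:**
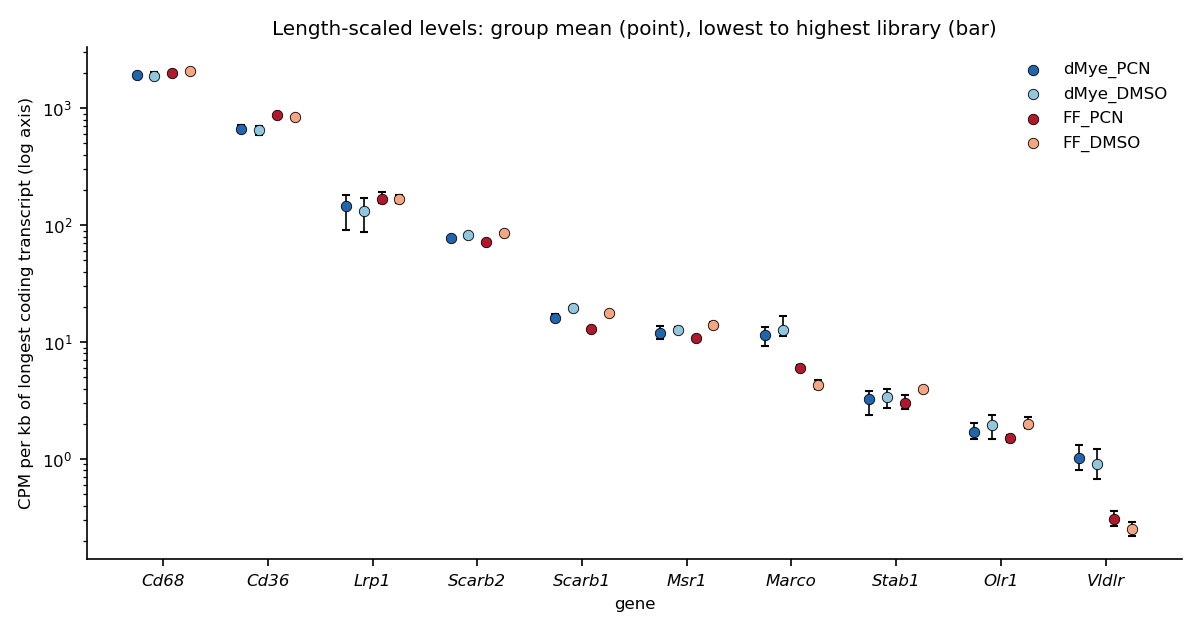
Mean CPM per kb of the longest coding transcript (vertical, log axis) for each receptor gene (horizontal) in 4 groups, with bars from the lowest to the highest library. Cd68 and Cd36 lead in every group, and the dMye points of Vldlr and Marco stand above their FF points.

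PCN lowered Scarb1 in both genotypes, and in FF macrophages it also lowered Scarb2 and Msr1 and raised Marco. In edgeR's quasi-likelihood test, 1 of the 10 members changed in dMye (0 up, 1 down), where 2.08% of all tested genes were called (0.940% up, 1.14% down). In FF, 4 of the 10 changed (1 up, 3 down), where 13.8% of all tested genes were called (6.82% up, 6.98% down). The libraries with PCN and with DMSO did not overlap for 1 member in dMye (2.33% of all genes) and for 6 members in FF (33.4% of all genes). The median log2 fold change of the members was -0.06 in dMye, against -0.0098 over all genes, and -0.13 in FF, against 0.0091 over all genes. The 8 macrophage markers had a median of -0.27 with PCN in FF, where 6 were called lower and 0 higher. The part of this fall in the receptor results was not tested. For none of the 10 was the PCN effect called different between dMye and FF (1.42% of all genes were). At an unadjusted p under 0.05, 3 members (Scarb2, Marco and Msr1) and 12.9% of all genes passed that test of the difference. DESeq2 called 1 member (Scarb2, with 3.04% of all genes) and limma-voom 0 (1.29% of all genes).

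**Figure D2:**
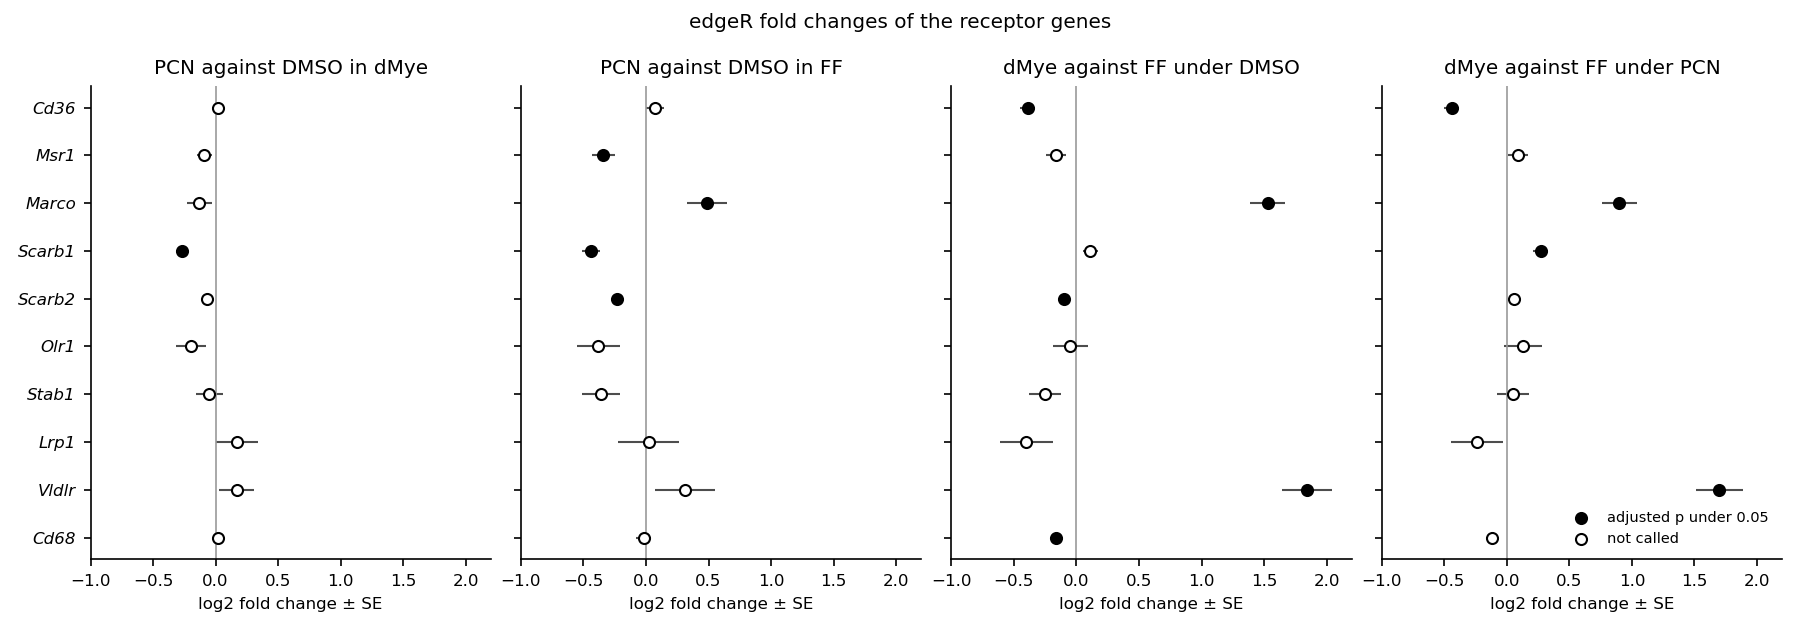
Log2 fold change with its SE (horizontal) for each receptor gene (vertical) in 4 comparisons, from edgeR. Filled points have an adjusted p under 0.05; in the PCN panels the filled points are Scarb1 in dMye, and Msr1, Marco, Scarb1 and Scarb2 in FF.

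Class B receptors include Scarb1, which encodes SR-BI, the receptor that exchanges cholesterol with HDL (GRCm38, chr5:125277087-125341094, minus strand). Scarb1 ranged from 38.4 to 43.8 CPM in dMye_PCN (median 40.0), against 46.6 to 51.7 CPM in dMye_DMSO (median 48.5). In FF it had 33.7, 30.6 and 33.1 CPM with PCN, against 44.3, 45.1 and 44.5 CPM with DMSO. Every library with PCN lay below every library with DMSO of its genotype. Scarb1 fell to 0.828-fold in dMye (log2 -0.27 ± 0.05 SE, adjusted p = 0.003) and to 0.738-fold in FF (log2 -0.44 ± 0.07, adjusted p = 0.00012). The effects differed by 0.17 ± 0.08 on the log2 scale (dMye minus FF, adjusted p = 0.42), a difference that missed the threshold.

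Scarb2 encodes LIMP-2, a membrane protein of lysosomes (chr5:92441314-92506833, minus strand). It ranged from 364 to 372 CPM in dMye_PCN (median 365), against 367 to 405 CPM in dMye_DMSO (median 388), and these ranges overlapped. The FF libraries had 339, 339 and 342 CPM with PCN, against 408, 411 and 400 CPM with DMSO. The FF libraries with PCN lay below all others of the series and within 3 CPM of each other. Scarb2 fell to 0.850-fold in FF (log2 -0.23 ± 0.04, adjusted p = 0.00025). In dMye the ratio was 0.952 (log2 -0.07 ± 0.03, adjusted p = 0.21). The difference between the effects was 0.16 ± 0.05 on the log2 scale (dMye minus FF), with an adjusted p of 0.095 in edgeR and 0.00068 in DESeq2.

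Cd36, the class B receptor that takes up oxidised LDL and long-chain fatty acids (chr5:17781690-17888801, minus strand), showed no call with PCN. It ranged from 2116 to 2436 CPM in dMye_PCN (median 2288), against 2015 to 2401 CPM in dMye_DMSO (median 2246). Levels in FF were 2875, 3019 and 3058 CPM with PCN, against 2887, 2916 and 2834 CPM with DMSO. The libraries of the agents overlapped in both genotypes, and the spread between libraries was small beside the level. The log2 fold change was 0.02 ± 0.05 in dMye (adjusted p = 0.87) and 0.07 ± 0.07 in FF (adjusted p = 0.53).

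The class A receptors moved in opposite directions with PCN in FF. Msr1 encodes the macrophage receptor for acetylated and oxidised LDL (chr8:39581685-39642673, minus strand). It ranged from 38.9 to 50 CPM in dMye_PCN (median 42.4), against 43.4 to 49.1 CPM in dMye_DMSO (median 45.8). In FF it had 37.4, 40.0 and 40.7 CPM with PCN, against 54.3, 49.6 and 48.3 CPM with DMSO. The dMye groups overlapped and the FF groups did not. Msr1 fell to 0.789-fold in FF (log2 -0.34 ± 0.09, adjusted p = 0.011), and in dMye the ratio was 0.940 (log2 -0.09 ± 0.06, adjusted p = 0.53). The difference of 0.25 ± 0.11 on the log2 scale (dMye minus FF) was not called (adjusted p = 0.31).

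Marco encodes a collagen-like receptor of macrophages for bacteria and particles (chr1:120474538-120505024, minus strand). It ranged from 17.7 to 25.8 CPM in dMye_PCN (median 22.8), against 21.5 to 32.2 CPM in dMye_DMSO (median 22.4). The FF libraries had 12.2, 11.3 and 11.1 CPM with PCN, against 7.60, 9.17 and 8.29 CPM with DMSO. The FF groups did not overlap, while the dMye groups did. Marco rose 1.40-fold in FF (log2 0.49 ± 0.16, adjusted p = 0.048), and in dMye the ratio was 0.912 (log2 -0.13 ± 0.10, adjusted p = 0.58). The difference of -0.62 ± 0.19 on the log2 scale (dMye minus FF) was not called (adjusted p = 0.12). The call in FF sat at the threshold: leaving out any of 14 of the 18 libraries ended it, with log2 values between 0.41 and 0.56 and adjusted p up to 0.16.

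Olr1 encodes LOX-1, a C-type lectin receptor for oxidised LDL (chr6:129485244-129507165, minus strand). It ranged from 5.30 to 7.30 CPM in dMye_PCN (median 5.81), against 5.35 to 8.58 CPM in dMye_DMSO (median 7.24). Levels in FF were 5.75, 5.47 and 5.04 CPM with PCN, against 6.67, 8.14 and 6.65 CPM with DMSO. The FF libraries with PCN lay below those with DMSO. Over all 4 groups Olr1 had 119 to 259 counts per library. Its libraries spanned 0.47 on the log2 scale in dMye_PCN, 0.64 in dMye_DMSO, 0.17 in FF_PCN and 0.30 in FF_DMSO. PCN gave a log2 fold change of -0.20 ± 0.12 in dMye (adjusted p = 0.46) and -0.38 ± 0.17 in FF (adjusted p = 0.15).

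Stab1 encodes stabilin-1, a class H receptor that clears acetylated LDL and matrix proteins (chr14:31139013-31168641, minus strand). It ranged from 19.1 to 30.6 CPM in dMye_PCN (median 26.2), against 21.9 to 31.6 CPM in dMye_DMSO (median 27.6). FF macrophages had 28.2, 23.0 and 21.3 CPM with PCN, against 32.0, 32.7 and 29.9 CPM with DMSO. The FF groups did not overlap, although the highest library with PCN came close to the lowest with DMSO. The log2 fold change was -0.05 ± 0.11 in dMye (adjusted p = 0.86) and -0.36 ± 0.15 in FF (adjusted p = 0.12). Stab1 exons share 112 of 10288 bases with Nt5dc2 on the opposite strand, and whether the authors' counting used strand is not given in the sources used here.

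Cd68 (chr11:69664213-69666153, minus strand) was among the steadiest members. It ranged from 2251 to 2485 CPM in dMye_PCN (median 2357), against 2186 to 2496 CPM in dMye_DMSO (median 2318). Levels in FF were 2474, 2532 and 2420 CPM with PCN, against 2597, 2528 and 2510 CPM with DMSO. The agents' libraries overlapped in both genotypes. PCN gave a log2 fold change of 0.02 ± 0.04 in dMye (adjusted p = 0.84) and -0.02 ± 0.06 in FF (adjusted p = 0.89).

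Lrp1 encodes the large endocytic receptor for apolipoprotein E, α2-macroglobulin and protease complexes (chr10:127538161-127621148, minus strand, 89 exons). It ranged from 1361 to 2706 CPM in dMye_PCN (median 2225), against 1293 to 2565 CPM in dMye_DMSO (median 2040). FF macrophages had 2330, 2882 and 2300 CPM with PCN, against 2320, 2533 and 2703 CPM with DMSO. Its libraries spread more widely than those of any other abundant member, and the agents overlapped in both genotypes. The log2 fold change was 0.17 ± 0.17 in dMye (adjusted p = 0.68) and 0.02 ± 0.24 in FF (adjusted p = 0.98).

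Vldlr, the receptor for VLDL and apolipoprotein E-rich particles (chr19:27216484-27254231, plus strand), was the lowest member per kb. It ranged from 6.38 to 10.5 CPM in dMye_PCN (median 7.94), against 5.37 to 9.83 CPM in dMye_DMSO (median 7.07). In FF it had 2.88, 2.30 and 2.15 CPM with PCN, against 2.30, 1.76 and 1.96 CPM with DMSO. The agents overlapped in both genotypes, and the FF values rest on only 48 to 74 counts per library. PCN gave a log2 fold change of 0.17 ± 0.14 in dMye (adjusted p = 0.61) and 0.31 ± 0.24 in FF (adjusted p = 0.45).

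**Figure D3:**
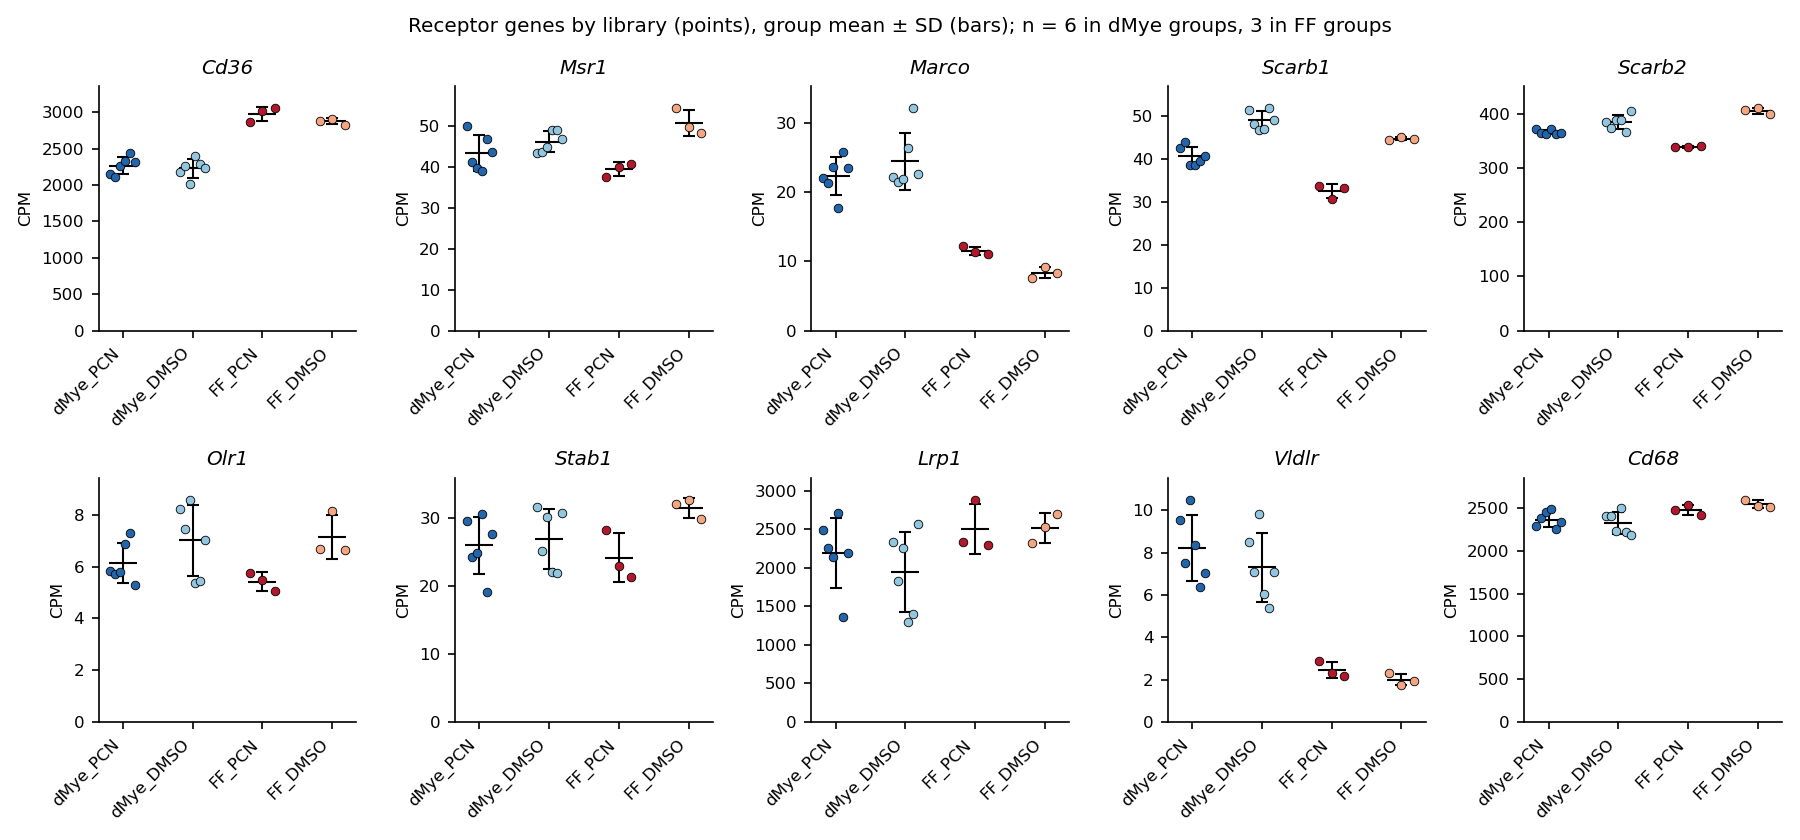
CPM of the 10 receptor genes (vertical, from 0) in each library (points), by group, with the mean and SD as bars. The FF_PCN points of Scarb1, Scarb2 and Msr1 lie below those of FF_DMSO, and the dMye points of Cd36 lie below all FF points while those of Marco and Vldlr lie above them.

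Between the genotypes, Vldlr and Marco were higher and Cd36 was lower in dMye than in FF under both agents. Under DMSO, 5 of the 10 members changed (2 up, 3 down), where 21.8% of all tested genes were called (13.9% up, 7.85% down). Under PCN, 4 changed (3 up, 1 down), where 27.6% of all genes were called (16.2% up, 11.4% down). The genotypes' libraries did not overlap for 5 members under DMSO (23.6% of all genes) and for 5 under PCN (26.7%). The median log2 fold change of the members was -0.13 under DMSO, against 0.02 over all genes, and 0.08 under PCN, against 0.0027 over all genes. The count under DMSO was 3 without FF_DMSO 1 or without FF_DMSO 2, and 6 without dMye_DMSO 5, where Msr1 was called as well.

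Vldlr was 3.58-fold higher in dMye than in FF under DMSO (log2 1.84 ± 0.20, adjusted p = 2.7e-07) and 3.25-fold higher under PCN (log2 1.70 ± 0.19, adjusted p = 5.6e-07). Marco was 2.88-fold higher under DMSO (log2 1.53 ± 0.14, adjusted p = 4e-08) and 1.87-fold higher under PCN (log2 0.90 ± 0.14, adjusted p = 3e-05). For both genes every dMye library lay above every FF library. Cd36 was 0.762-fold of its FF level under DMSO (log2 -0.39 ± 0.06, adjusted p = 1.9e-05) and 0.735-fold under PCN (log2 -0.44 ± 0.06, adjusted p = 2.9e-06), with every dMye library below every FF library. In CPM, Cd36 averaged 2269 ± 118 in dMye_PCN against 2984 ± 96.5 in FF_PCN, and 2231 ± 128 in dMye_DMSO against 2879 ± 41.3 in FF_DMSO (SD, n = 6 in dMye and 3 in FF).

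A further 3 members were called under 1 agent. Scarb1 was 1.21-fold higher in dMye than in FF under PCN (log2 0.27 ± 0.06, adjusted p = 0.0016). Under DMSO its ratio was 1.08 (log2 0.11 ± 0.06, adjusted p = 0.2), although the genotypes' libraries did not overlap there either. Cd68 was 0.898-fold of its FF level under DMSO (log2 -0.16 ± 0.05, adjusted p = 0.028), and its ratio under PCN was 0.923 (adjusted p = 0.091). Scarb2 was 0.932-fold of its FF level under DMSO (log2 -0.10 ± 0.03, adjusted p = 0.034), with overlapping libraries, and its ratio under PCN was 1.04 (adjusted p = 0.19). Without FF_DMSO 1 or FF_DMSO 2 the DMSO calls of Cd68 and Scarb2 were both lost, and that of Scarb2 also without dMye_DMSO 2, with adjusted p up to 0.08 for Cd68 and up to 0.15 for Scarb2. Msr1, Olr1, Stab1 and Lrp1 were called in neither genotype comparison, with log2 fold changes from -0.40 to -0.05 under DMSO and from -0.24 to 0.13 under PCN.

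Sex and several lists of markers of other cells differed between the genotypes. Beside the mesothelial and fibroblast markers given above, the 5 markers of resident large peritoneal macrophages summed to 22.4 to 26.1 CPM in dMye_PCN and 8.20 to 9.95 CPM in FF_PCN, and to 25.8 to 29.7 CPM in dMye_DMSO and 9.86 to 14 CPM in FF_DMSO. The 5 B cell markers summed to 4.93 to 8.11 CPM in dMye_PCN and 6.62 to 10.2 CPM in FF_PCN, and to 4.83 to 7.37 CPM in dMye_DMSO and 14.9 to 19.1 CPM in FF_DMSO. The 5 T cell markers summed to 2.02 to 2.98 CPM in dMye_PCN and 3.81 to 4.36 CPM in FF_PCN, and to 1.52 to 2.95 CPM in dMye_DMSO and 3.92 to 5.28 CPM in FF_DMSO. Of them, 4 of 5 were called lower in dMye under DMSO (7.85% of all genes) and 2 of 5 under PCN (11.4% of all genes). Of the 6 neutrophil markers, 3 were tested, and most of their sum was Mmp8, which was 0.390-fold of its FF level in dMye under DMSO (adjusted p = 2e-11) and 0.544-fold under PCN (adjusted p = 5e-08). S100a9 was lower in dMye under DMSO (0.414-fold, adjusted p = 0.034) and not called under PCN (0.435-fold, adjusted p = 0.061), and S100a8 was not called (1.17-fold under DMSO and 1.18-fold under PCN, adjusted p = 0.48 and 0.46). With PCN in FF, 6 of the 8 macrophage markers and 4 of the 5 B cell markers were called lower, where 6.98% of all genes were. The part of these markers in the receptor results was not tested.

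Libraries of the same group differed in how much of their RNA came from long transcripts, and Lrp1, the longest receptor mRNA, followed this difference most closely. Each library was given an index, the median log2 deviation from the group mean of 529 genes with a transcript of at least 8 kb minus that of 3731 genes of 1 to 3 kb, with the receptors left out. This index was chosen after the values had been seen. It was lowest in dMye_DMSO 5 (-0.36), dMye_PCN 5 (-0.33) and dMye_DMSO 4 (-0.21) and highest in dMye_DMSO 6 (0.30) and dMye_PCN 4 (0.25), while the FF libraries lay between -0.08 and 0.15. Lrp1 had 1403, 1361 and 1293 CPM in the 3 lowest, below every other library. Over the 18 libraries, deviations from the group mean were taken on TMM-scaled log2 CPM. They correlated with the index at r = 0.96 for Lrp1 and 0.79 for Stab1, whose longest transcripts have 14888 and 7999 bases. The r was 0.52 for Vldlr, whose longest transcript of 7971 bases is almost as long as that of Stab1, 0.36 for Olr1, 0.20 for Scarb2, -0.18 for Cd68, -0.38 for Scarb1, -0.54 for Msr1, -0.59 for Cd36 and -0.79 for Marco. Without the 3 lowest libraries, over 15, r was 0.98 for Lrp1, 0.54 for Stab1 and -0.52 for Marco, but -0.13 for both Cd36 and Msr1 and 0.08 for Vldlr. These are descriptions, without a test, since all genes of a library share its depth and composition. Lrp1 and Stab1 also moved with each other (r = 0.82), while Marco ran against Lrp1 (r = -0.71) and Cd36 against Vldlr (r = -0.72).

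**Figure D4:**
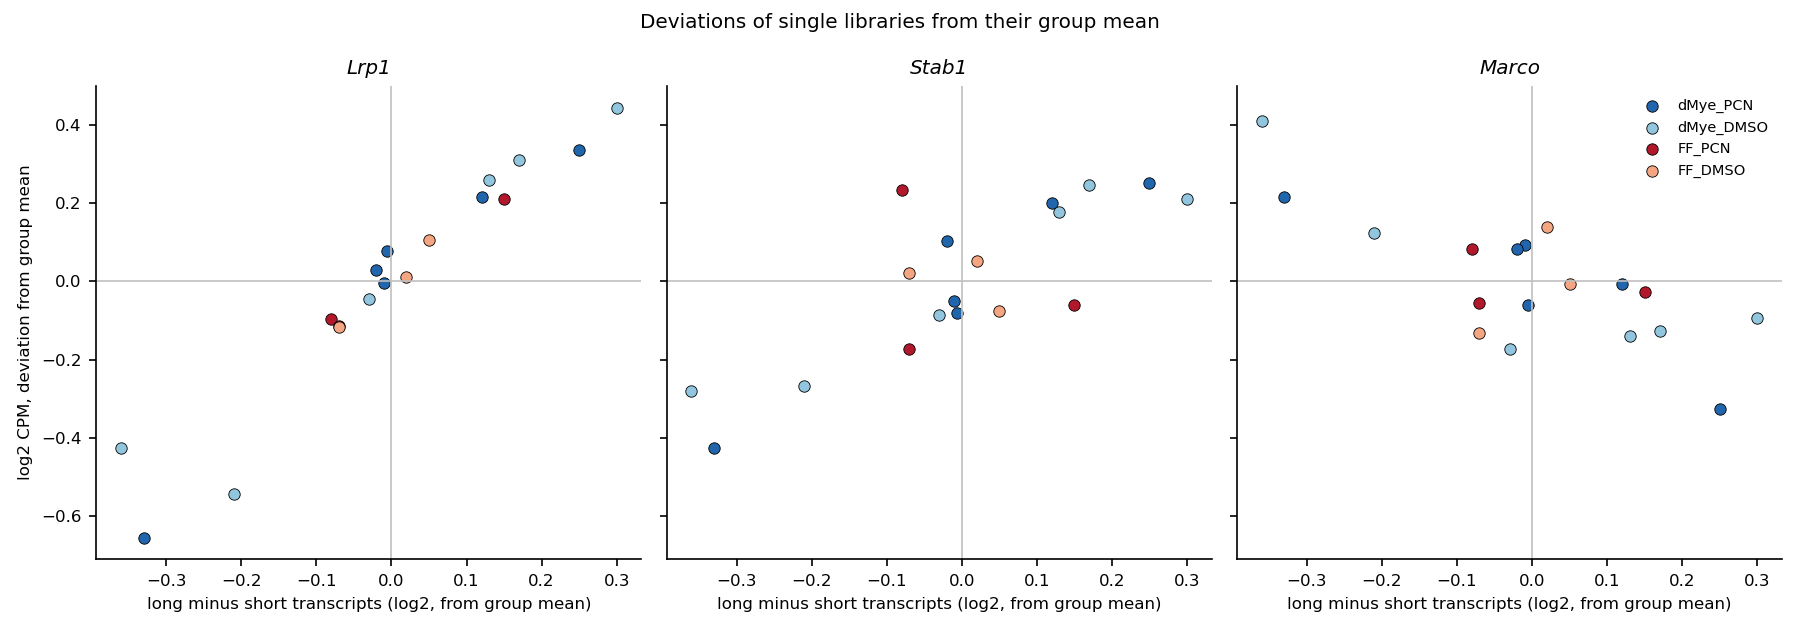
Deviation of log2 CPM from the group mean (vertical) for Lrp1, Stab1 and Marco against the index of long over short transcripts (horizontal, log2, from the group mean), 1 point per library. Lrp1 rises along the index (r = 0.96), Stab1 less closely (r = 0.79), and Marco falls (r = -0.79). The points show unscaled CPM, while each r was taken on TMM-scaled CPM.

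In a further edgeR fit, the covariate was the same difference between long and short genes taken from the mean of the 4 groups, so that it was not centred in each group. This covariate ran from -0.346 to 0.219 in dMye_PCN, -0.524 to 0.128 in dMye_DMSO, 0.045 to 0.272 in FF_PCN and -0.002 to 0.122 in FF_DMSO. It was thus lower in many dMye libraries, and a fit with it takes part of a genotype difference in long transcripts off the genotype ratio by construction. Its range also lay higher with PCN than with DMSO in each genotype, with overlap, so the fit alters the PCN effects as well. With the covariate, the genotype ratio of Lrp1 under DMSO came to -0.06 on the log2 scale (adjusted p = 0.62), against -0.40 (adjusted p = 0.18) without it. Without the 3 lowest libraries it was -0.22 (adjusted p = 0.23). Stab1 with PCN in FF, not called in the full fit, was called lower with the covariate (log2 -0.40, adjusted p = 0.0024) and without the 3 libraries (log2 -0.36, adjusted p = 0.014). The difference between the PCN effects was called for Marco and Scarb2 with the covariate (dMye minus FF, log2 -0.54 for Marco, adjusted p = 0.0085, and 0.16 for Scarb2, adjusted p = 0.016). Without the 3 libraries both were called as well (log2 -0.50 for Marco, adjusted p = 0.038, and 0.17 for Scarb2, adjusted p = 0.044). Of all genes, 5.38% were called in that comparison with the covariate and 3.13% without the 3 libraries. The covariate and the 3 libraries were picked after the values had been seen, and the full fit called neither difference.

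Other endocytic lipoprotein receptors and the sortilins formed a list of 12, of which 11 were tested. With PCN in dMye edgeR called 0 of the 11 (3 had an unadjusted p under 0.05), where 2.08% of all genes were called. In FF 1 rose and 3 fell, where 6.82% of all genes were called higher and 6.98% lower. The median log2 fold change of the 11 in FF was 0.05. Sort1, which encodes sortilin, a sorting receptor of the Golgi, fell to 0.619-fold in FF (adjusted p = 7e-06), and its effect differed between dMye and FF (log2 0.48 ± 0.10, adjusted p = 0.021). Sorl1, another sorting receptor, fell to 0.663-fold in FF (adjusted p = 0.004), while Lrp12 rose 1.22-fold (adjusted p = 0.00019). In dMye against FF, 2 of the 11 were higher and 2 lower under DMSO (13.9% and 7.85% of all genes). Under PCN 3 were higher and 2 lower (16.2% and 11.4% of all genes).

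Among 11 tested scavenger receptors of a further list of 14, 0 changed with PCN in dMye (2.08% of all genes). In FF 1 fell (6.98% of all genes) and 0 rose (6.82%). The 1 was Clec10a, a galactose-binding lectin, which fell to 0.481-fold in FF (adjusted p = 8.5e-06) and whose effect differed between dMye and FF (log2 0.75 ± 0.16, adjusted p = 0.021). Between genotypes 4 of the 11 were higher in dMye and 0 lower under DMSO, and 7 were higher and 0 lower under PCN. Of all genes, 13.9% were called higher and 7.85% lower under DMSO, and 16.2% higher and 11.4% lower under PCN. Colec12, a collectin that binds oxidised LDL, was 2.69-fold higher in dMye under DMSO (adjusted p = 7.9e-12) and 2.30-fold higher under PCN (adjusted p = 1.2e-10). Mrc1, the mannose receptor, was 1.34-fold higher under both agents (adjusted p = 2.2e-06 under DMSO and 2.1e-06 under PCN).

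Of 13 tested adaptors, chaperones and degraders of the receptors, 0 fell with PCN. The same 1 rose in dMye (0.940% of all genes were called higher) and in FF (6.82%). It was Mylip, which encodes IDOL, a ubiquitin ligase that sends lipoprotein receptors such as the VLDL receptor to degradation. Mylip had 23.9 ± 1.24 CPM in dMye_PCN and 18 ± 0.881 CPM in dMye_DMSO, and 35.7 ± 0.428 CPM in FF_PCN and 22.7 ± 0.656 CPM in FF_DMSO. It rose 1.32-fold in dMye (adjusted p = 0.00011) and 1.60-fold in FF (adjusted p = 1.1e-06), and the difference was not called (log2 -0.27 ± 0.09, adjusted p = 0.12). Lrpap1, the chaperone that keeps LRP1 from binding ligands too early, was called in none of the comparisons (adjusted p from 0.076 to 0.84). Between genotypes 5 of the 13 were higher and 4 lower in dMye under DMSO (13.9% and 7.85% of all genes). Among them were the endocytic adaptor Dab2, 1.66-fold higher (adjusted p = 1.5e-07), and Cav1 of caveolae, 1.88-fold higher (adjusted p = 2e-09).

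Ligands and lipoprotein-handling proteins on the list of 12, of which 11 were tested, included 1 that rose and 0 that fell with PCN in dMye. In FF 0 rose and 3 fell. Of all tested genes, 0.940% were called higher and 1.14% lower with PCN in dMye, and 6.82% higher and 6.98% lower in FF. Angptl4, an inhibitor of lipoprotein lipase, fell to 0.183-fold in FF (adjusted p = 3e-05), and Thbs1, a ligand of CD36, fell to 0.715-fold (adjusted p = 0.0047). Their effects differed between dMye and FF (log2 1.93 ± 0.40, adjusted p = 0.02 for Angptl4, and 0.55 ± 0.13, adjusted p = 0.042 for Thbs1). Angptl4 had few and scattered counts in FF_PCN (0.622, 1.55 and 3.18 CPM), against 9.98, 8.55 and 11.0 CPM in FF_DMSO. Under DMSO, Angptl4 in dMye was 0.414-fold of its FF level (adjusted p = 0.0007). Lpl, lipoprotein lipase, had 344 ± 41.7 CPM in dMye_PCN and 345 ± 31.3 CPM in dMye_DMSO, and 392 ± 16.5 CPM in FF_PCN and 537 ± 14.4 CPM in FF_DMSO. It fell to 0.743-fold in FF (adjusted p = 0.0021), and the difference between the effects missed the threshold (log2 0.43 ± 0.11, adjusted p = 0.053). Apoe, the ligand that LRP1 and the VLDL receptor share, was 1.19-fold higher in dMye than in FF under DMSO (adjusted p = 0.022) and 1.23-fold higher under PCN (adjusted p = 0.0045), and was not called with PCN in dMye (adjusted p = 0.22) or in FF (adjusted p = 0.11).

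The genes whose library-to-library pattern was most like each receptor were found by Pearson's r over 18 libraries, after the group means were taken off, among 9141 genes. Those most like Lrp1 were Ubr4, Plxna1 and Zmiz1 (r = 0.99 each), with longest transcripts of 15.9, 9.03 and 7.48 kb, and those like Stab1 included Lrba (0.90) and Itgam (0.89). Marco was most like Pf4 (0.94), Tmem222 (0.94) and Sec11c (0.93), and Cd36 most like Ccr1 (0.91), Riok3 (0.90) and Mindy1 (0.90). The deviations of Pf4, Tmem222 and Sec11c correlated with the long-transcript index at -0.82, -0.87 and -0.83. For Ccr1, Riok3 and Mindy1 these r were -0.56, -0.48 and -0.63. The part of the index in these likenesses was not tested. Cd68 was followed by Csnk2b (0.87), Vldlr by Egr1 (0.86), Olr1 by Zbtb1 (0.84), Msr1 by Cep78 (0.83), Scarb2 by Rnf170 (0.81) and Scarb1 by Prr13 (0.79). These r describe the residual spread of the same libraries and carry no test.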

How the data were processed

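Total RNA of cultured macrophages was sequenced. The authors deposited 1 table of expected counts (estimates that can be fractional) by gene symbol. Its genome build was mm10, per the submitters' processing notes. No source used here names the aligner, the quantifier, the annotation or a strand setting. Counts were rounded and filtered by filterByExpr, and 1 edgeR 4.0.16 quasi-likelihood fit (R 4.3.3, robust, TMM, 4 groups, 18 libraries) gave all contrasts. Calls are Benjamini-Hochberg adjusted p under 0.05 over all tested genes. The SE of a log2 fold change is its size over the square root of F. Printed CPM used unscaled totals, while the long-transcript index and every r used TMM-scaled log2 CPM with a prior count of 2. Replicate numbers only name libraries. Coordinates are from GENCODE M21 (GRCm38) and promoters from RefSeq. The members, lists and tests were chosen with earlier results of these data known. All members were named, with up to 4 called genes per list and contrast, smallest p first, and some genes that rule selects are left out for length. Some genes, and a part of the genotype that all 4 groups share, are not reported here and stay out of the list counts. Alternatives used DESeq2 1.42.0, limma-voom (limma 3.58.1), other scaling, other filters, a test against 1.2-fold, only the groups compared, and libraries left out. The fit was tested on simulated data.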

Additional observations from a re-analysis of the deposited data

How the results depend on the processing

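No paired analysis was possible because the labels carry no replicate numbers. Of 1440 single-gene values under alternatives (50 values, up to 29 settings each), 1369 kept direction and side of the threshold, 34 lost a call, 17 gained one and 20 changed sign, all 20 of values not called. The count with PCN in FF was 4, and 0 against 1.2-fold. In dMye it was 1, with 2 by DESeq2 and 0 against 1.2-fold. The count whose PCN effect differed was 0 (1.42% of all genes), with 1 by DESeq2 (3.04%). It was 2 without the libraries low in long transcripts (3.13%) and 2 with the uncentred long-transcript index as covariate (5.38%). For dMye against FF under DMSO it was 5, with 3 under upper-quartile scaling, 3 against 1.2-fold and 3 with only the groups compared. Leaving out each library gave 1 to 1 in dMye, 3 to 4 in FF, 0 to 0 for the difference, 3 to 6 for dMye against FF under DMSO and 4 to 5 under PCN. The shares of all genes called under the other settings are not given here. Shifts in these counts therefore cannot be read as particular to the members. The log2 fold change of Lrp1 in FF was -0.02 under upper-quartile scaling, -0.0059 with no filter, -0.0014 with only the groups compared and -0.08 with the covariate, and in dMye -0.03 with the covariate. Cd68 in dMye was -0.01 without dMye_DMSO 5 and 6. The Olr1 difference was -0.01 without the libraries low in long transcripts. Olr1 between genotypes under DMSO was 0.0080 without dMye_DMSO 5 and 6, 0.08 without the libraries low in long transcripts and 0.03 with the covariate. With single libraries left out, signs changed within -0.0052 to 0.05 for Cd36, -0.0022 to 0.05 for Cd68 and -0.11 to 0.02 for Stab1 (PCN in dMye), -0.11 to 0.06 for Lrp1 (PCN in FF), -0.24 to 0.0031 for the Vldlr difference, -0.13 to 0.05 for Olr1 (dMye against FF under DMSO) and -0.03 to 0.17 for Stab1 (under PCN). The cause of these changes was not tested. The call of Marco in FF was also lost under upper-quartile scaling (adjusted p = 0.074), with no filter (0.066), with limma-voom (0.10) and against 1.2-fold (0.40). Vldlr at 48 to 74 counts per FF library and Olr1 at 119 to 259 counts have the least depth.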

Other observations

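Genes that act after uptake were also measured. Of all tested genes, 0.940% were called higher and 1.14% lower with PCN in dMye, and 6.82% higher and 6.98% lower in FF. Of 12 tested CD36 signalling partners and fatty acid handling genes, 0 changed with PCN in dMye, and 2 rose and 1 fell in FF. Pparg, a nuclear receptor known to raise Cd36 in macrophages, was 1.19-fold higher in FF_PCN than in FF_DMSO (edgeR adjusted p = 0.012), Acsl4 was 1.15-fold higher (adjusted p = 0.0051), and the kinase gene Lyn was 0.835-fold (adjusted p = 0.001). Of 9 tested storage and efflux genes, 1 rose and 0 fell with PCN in dMye, and 3 rose and 1 fell in FF. Abcg1, a cholesterol exporter, rose 1.39-fold in dMye (adjusted p = 2.3e-05) and 1.49-fold in FF (adjusted p = 1e-05). Plin2, a coat protein of lipid droplets, was 0.669-fold of its FF level in dMye under DMSO (adjusted p = 3.1e-08) and 0.679-fold under PCN (adjusted p = 5e-08).

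Of 10 tested lysosomal genes, 1 rose and 2 fell with PCN in dMye, and 1 rose and 1 fell in FF. The shares of all genes called were 0.940% higher and 1.14% lower in dMye, and 6.82% higher and 6.98% lower in FF. Lipa, the lysosomal acid lipase that frees cholesterol from lipoproteins, fell to 0.865-fold in dMye (adjusted p = 0.0015) and to 0.700-fold in FF (adjusted p = 2.7e-07), and the effects differed (log2 0.30 ± 0.06, dMye minus FF, adjusted p = 0.011). Npc1, which carries cholesterol out of lysosomes, rose 1.16-fold in dMye (adjusted p = 0.039) and 1.24-fold in FF (adjusted p = 0.0074).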
